A study of Mus musculus with 12 samples.

Results

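The genes encoding AMPA and NMDA receptor subunits were examined in 3 regions of the mouse hippocampus under 4 histological conditions. The members were the rows of the UMI count table with the symbols Gria1, Gria2, Gria3 and Gria4 (AMPA receptor subunits) and Grin1, Grin2a, Grin2b, Grin2d and Grin3a (NMDA receptor subunits), which were 9 of the 32546 genes in the table. The counts came from photo-isolation chemistry (PIC), in which reverse transcription is primed in the section with a photo-caged primer and the cDNA of an irradiated area alone is amplified. A UMI is a short random tag that marks 1 cDNA molecule, and PIC reads the 3′ ends of polyadenylated transcripts, so that the CPM value of a gene (its UMIs scaled to an equal total in each replicate) is not divided by transcript length.

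Sections were prepared from Slc:ICR male mice (ICR in the labels) aged 8 weeks, without any genetic change or drug. Fresh-frozen sections came from tissue not fixed before sectioning. They were permeabilized with 0.1 N HCl for 5 min (HCl condition) or with TE buffer at 70 °C for 1 h (TE condition). The HCl treatment in the study's protocol also includes Triton X-100, Tris buffer and heated PBS. Tissue fixed with 4% paraformaldehyde was cut either as frozen sections (formalin-fixed frozen) or as paraffin sections, and both were permeabilized with TE. The study's protocol also post-fixes every section briefly with paraformaldehyde on the slide before permeabilization. Fixed, unfixed and fixation refer below to the tissue before sectioning. CA1, CA3 or the dentate gyrus (DG) was irradiated in 4 replicates of each condition. CA3 is the name in the sample titles, where the series description has CA2. Each of the 12 libraries pooled the 4 barcoded replicates of 1 region in 1 condition, and the effect of a region therefore cannot be told apart from that of its library. An irradiated area holds every cell type present in it, and fewer cells of a type and less RNA per cell cannot be told apart in these values.

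AMPA and NMDA receptors are tetrameric cation channels opened by glutamate. AMPA receptors carry most of the fast excitatory current at hippocampal synapses, and the GluA2 subunit encoded by Gria2 makes them nearly impermeable to calcium after its transcript is edited at a glutamine codon in the pore (the Q/R site). NMDA receptors need the GluN1 subunit (Grin1) together with GluN2 or GluN3 subunits, admit calcium when the membrane is depolarized, and start the synaptic plasticity for which the hippocampus is known.

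The coding sequences around the Q/R site are shown because this short stretch sets the subunits apart in function although it is nearly the same in the 4 AMPA receptor genes. Each holds 30 bases of GRCm38 on the coding strand, 5′ to 3′, and the capitals mark the glutamine codon that editing changes in Gria2 transcripts.
Gria1: ttcatgCAGcaaggatgtgacatttccccc
Gria2: tttatgCAGcaaggatgcgatatttcgcca
Gria3: tttatgCAGcaaggatgtgatatttctcca
Gria4: tttatgCAAcaaggatgtgacatttcaccc
These lie at chr11:57243088-57243117 (plus strand), chr3:80706890-80706919 (minus), chrX:41610259-41610288 (plus) and chr9:4464116-4464145 (minus). The stretch falls in exon 11 of 16 of the longest coding transcript of Gria1, Gria2 and Gria3 and in exon 12 of 17 of that of Gria4. Of the 30 bases, 28 in Gria3 and 25 each in Gria1 and Gria4 are the same as in Gria2. The UMI counts carry no sequence of this stretch, so editing was not measured here.

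A replicate held 35932 to 1111804 UMIs, with a median of 240646. Totals were 127253 to 933756 in HCl, 294445 to 1111804 in TE, 52800 to 307145 in formalin-fixed frozen and 35932 to 223055 in paraffin sections, and this depth sets what could be seen of the rarer subunits. Marker lists of CA1, CA3 and DG followed the labels. The summed level of 5 CA1 markers averaged 475 to 1126 CPM in CA1 and 171 to 256 CPM in DG over the 4 conditions. The 8 DG markers summed to 1087 to 2397 CPM in DG and to 279 to 352 CPM in CA1, and in both lists the CA1 and DG means were closest in paraffin sections. The 5 CA3 markers summed to 390 to 1024 CPM in CA3, where Iyd stood at 0 in paraffin sections, and to 195 to 479 CPM in DG. A list of 5 CA2 markers was not highest in the CA3 libraries. It summed to 339, 398, 749 and 424 CPM in CA3 of HCl, TE, formalin-fixed frozen and paraffin sections. In DG it was highest in each condition, at 542, 573, 1273 and 964 CPM.

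The AMPA receptor genes Gria1, Gria2 and Gria3 and the GluN2 genes Grin2a and Grin2b were abundant in every replicate and the other 4 members were rare. Gria2 (chr3:80681450-80802835, GRCm38) had 45236 UMIs over the 48 replicates and ranked 15 among all genes, Gria1 (chr11:57011387-57330244) had 20761, Grin2a (chr16:9567898-9995560) had 16739, Gria3 (chrX:41400854-41678601) had 15640 and Grin2b (chr6:135713233-136173511) had 12967. The others were Grin3a (chr4:49661611-49845744) with 888 UMIs, Grin2d (chr7:45831883-45878378) with 723, Gria4 (chr9:4417896-4796234) with 660 and Grin1 (chr2:25291181-25319187) with 531. The first 5 were detected in all 48 replicates, and Grin1 in 36 of them. Up to 2240 UMIs of Gria2 were counted in 1 replicate, which is 54.7% of the 4096 tags that 6 bases allow, so that its highest levels are compressed, and counts corrected for tags drawn more than once were used as an alternative.

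The order of the abundant subunits depended on the condition. In TE sections (12 replicates over the 3 regions) Gria2 averaged 2648 ± 377 CPM (SD), above Gria1 at 1150 ± 155 and Gria3 at 1139 ± 129, and the latter 2 did not differ beyond their spread. Grin2a (915 ± 192 CPM) overlapped with Gria1 and Gria3, and Grin2b (547 ± 175 CPM) overlapped with Grin2a. In HCl sections the order was Gria2 (2732 ± 521 CPM), Gria1 (1267 ± 176), Grin2a (977 ± 186), Grin2b (866 ± 282) and Gria3 (735 ± 104). The last 3 overlapped, and Gria3, level with Gria1 in TE sections, was the lowest of the 5. In formalin-fixed frozen sections Gria2 (2199 ± 574 CPM) was followed by Grin2a (845 ± 316), Gria1 (834 ± 164), Grin2b (668 ± 167) and, below all of them, Gria3 (316 ± 87.7). In paraffin sections Gria2 stood at 1917 ± 453 CPM, and Grin2a (732 ± 164), Gria1 (693 ± 109), Grin2b (564 ± 91.9) and Gria3 (538 ± 159) overlapped.

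The rare subunits were near the limit of detection in fixed tissue. Gria4 averaged 42.0 ± 8.89, 32.1 ± 10.8, 14.1 ± 8.08 and 28.7 ± 23.7 CPM in HCl, TE, formalin-fixed frozen and paraffin sections (n = 12 each). Grin2d, which is known from interneurons and from early development, averaged 64.2 ± 26.2, 28.6 ± 6.59, 15.1 ± 21.6 and 26.9 ± 26.1 CPM, and Grin3a, whose GluN3A subunit lowers the calcium permeability of NMDA receptors, 55.6 ± 21.9, 47.8 ± 8.05, 32.3 ± 23.3 and 36 ± 18.9 CPM. Grin1 was the rarest member in these counts, at 34.1 ± 17.7, 26.3 ± 12, 4.52 ± 5.84 and 11.6 ± 14.3 CPM, although every NMDA receptor holds its product. It was listed at 0 in replicates of both fixed conditions, and the antisense gene Grin1os overlaps 12.3% of its last 1000 exonic bases. The counting command of the study sets no strand and no option for overlapping genes, so that reads in the overlap could not be assigned to Grin1 by strand. The effect of this on the Grin1 count was not tested.

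**Figure D1:**
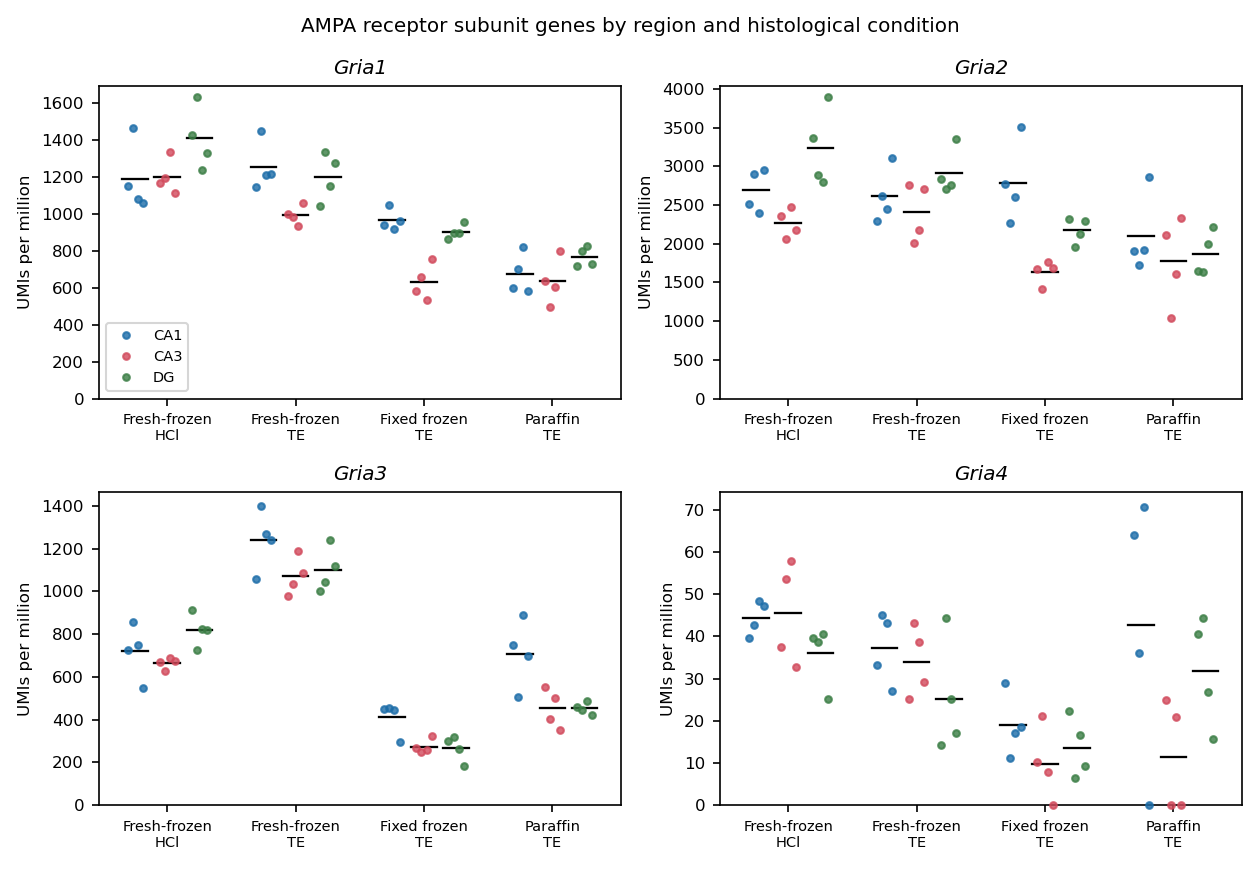
Levels (CPM, linear axes) of Gria1, Gria2, Gria3 and Gria4 in each replicate, with CA1, CA3 and DG side by side in the 4 conditions and a black line at the mean of 4 replicates. Gria3 stood between 980 and 1402 CPM in TE sections and between 183 and 453 CPM in formalin-fixed frozen sections, and the ranges of the regions overlapped in most panels.

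Regions were compared within each condition by edgeR's quasi-likelihood test with Benjamini-Hochberg adjustment over all genes tested. CA1 and DG, the pyramidal cells at the output of the circuit and the granule cells at its entry, were compared first. Grin2a and Grin2b were higher in CA1 than in DG in each of the 3 frozen conditions, Grin2d was lower in CA1 in HCl and formalin-fixed frozen sections, and Grin3a was lower in CA1 in HCl sections. No AMPA receptor subunit was called between CA1 and DG. The called members were 4 of 9 in HCl sections, where 16.9% of all genes tested were called, 2 of 9 in TE sections (10.2% of all genes), 3 of the 8 tested in formalin-fixed frozen sections (8.09%) and 0 of 9 in paraffin sections (3.14%). In paraffin sections 1 member passed at an unadjusted p under 0.05, beside 1245 of the 8969 genes tested, and DESeq2 called 0 members.

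Grin2a encodes GluN2A, the GluN2 subunit that predominates in the mature hippocampus. In HCl sections the CA1 replicates held 1051, 1428, 1233 and 1029 CPM and the DG replicates 817, 881, 905 and 888 CPM, without overlap, which gave a 1.37-fold higher level in CA1 (log2 fold change 0.46, SE 0.16, adjusted p = 0.047). In TE sections CA1 held 1018, 1268, 1062 and 1201 CPM and DG 724, 838, 911 and 978 CPM, again without overlap (log2 fold change 0.43, SE 0.14, adjusted p = 0.043). The difference was larger in formalin-fixed frozen sections on the scale of the fit, with 1333, 1001, 1296 and 1365 CPM in CA1 against 753, 674, 619 and 725 CPM in DG, or 1.71-fold (log2 fold change 0.77, SE 0.17, adjusted p = 0.00022), although no difference in effect between conditions was called. The formalin-fixed frozen call held without any 1 of the 8 replicates. The HCl call was lost without CA1 replicate 2 or 3 or any 1 DG replicate and with DESeq2 size factors (adjusted p = 0.056), and the TE call without CA1 replicate 2 or 4 or DG replicate 1, 2 or 3 and with DESeq2 (adjusted p = 0.0505).

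Grin2b encodes GluN2B, which is prominent early in development and persists in the adult forebrain. It stood at 958, 1375, 1365 and 943 CPM in CA1 and at 712, 932, 680 and 586 CPM in DG of HCl sections, with every CA1 replicate above every DG replicate. It was 1.6-fold higher in CA1 (log2 fold change 0.68, SE 0.18, adjusted p = 0.0051), and this call held without any 1 replicate. In TE sections CA1 had 596, 857, 775 and 540 CPM and DG 317, 554, 617 and 336 CPM, and the ranges overlapped (log2 fold change 0.62, SE 0.17, adjusted p = 0.015), a call that was no longer called without CA1 replicate 2, DG replicate 1 or DG replicate 4. In formalin-fixed frozen sections the 956, 824, 844 and 904 CPM of CA1 lay above the 596, 576, 491 and 605 CPM of DG (log2 fold change 0.57, SE 0.18, adjusted p = 0.020), which was lost without DG replicate 3. In paraffin sections both genes overlapped between CA1 and DG, with log2 fold changes of 0.23 (Grin2a, adjusted p = 0.77) and 0.02 (Grin2b, adjusted p = 0.98).

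Grin2d and Grin3a moved the opposite way in HCl sections. Grin2d had 50.6, 45.9, 27.6 and 47.2 CPM in CA1 and 99.3, 91.5, 72.3 and 117 CPM in DG, without overlap, and was 2.21-fold lower in CA1 (log2 fold change -1.14, SE 0.25, adjusted p = 0.0010), a call that held without any 1 replicate but not after thinning all replicates to the smallest total (-0.55, adjusted p = 0.83). Grin3a had 46.5, 44.3, 55.2 and 39.3 CPM in CA1 and 51.1, 88.4, 107 and 67.0 CPM in DG, with overlap in 1 DG replicate, and was 1.69-fold lower in CA1 (log2 fold change -0.76, SE 0.25, adjusted p = 0.025). The Grin3a call was lost without CA1 replicate 1 or 2 or DG replicate 2 or 3 and with DESeq2 (adjusted p = 0.076). In TE sections the levels of both genes overlapped between CA1 and DG, with log2 fold changes of -0.31 for Grin2d (adjusted p = 0.61) and -0.01 for Grin3a (adjusted p = 0.99). In formalin-fixed frozen sections Grin2d was at 0 UMIs in all 4 CA1 replicates and at 29.8, 6.51, 16.5 and 18.3 CPM in DG (12 UMIs), at least 2.13-fold lower in CA1 against a floor of 3 UMIs over the group. Its adjusted p was 0.049, and the call was lost without any 1 of 7 of the 8 replicates (all but DG replicate 2) and under most other settings, such as DESeq2 size factors (adjusted p = 0.054).

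**Figure D2:**
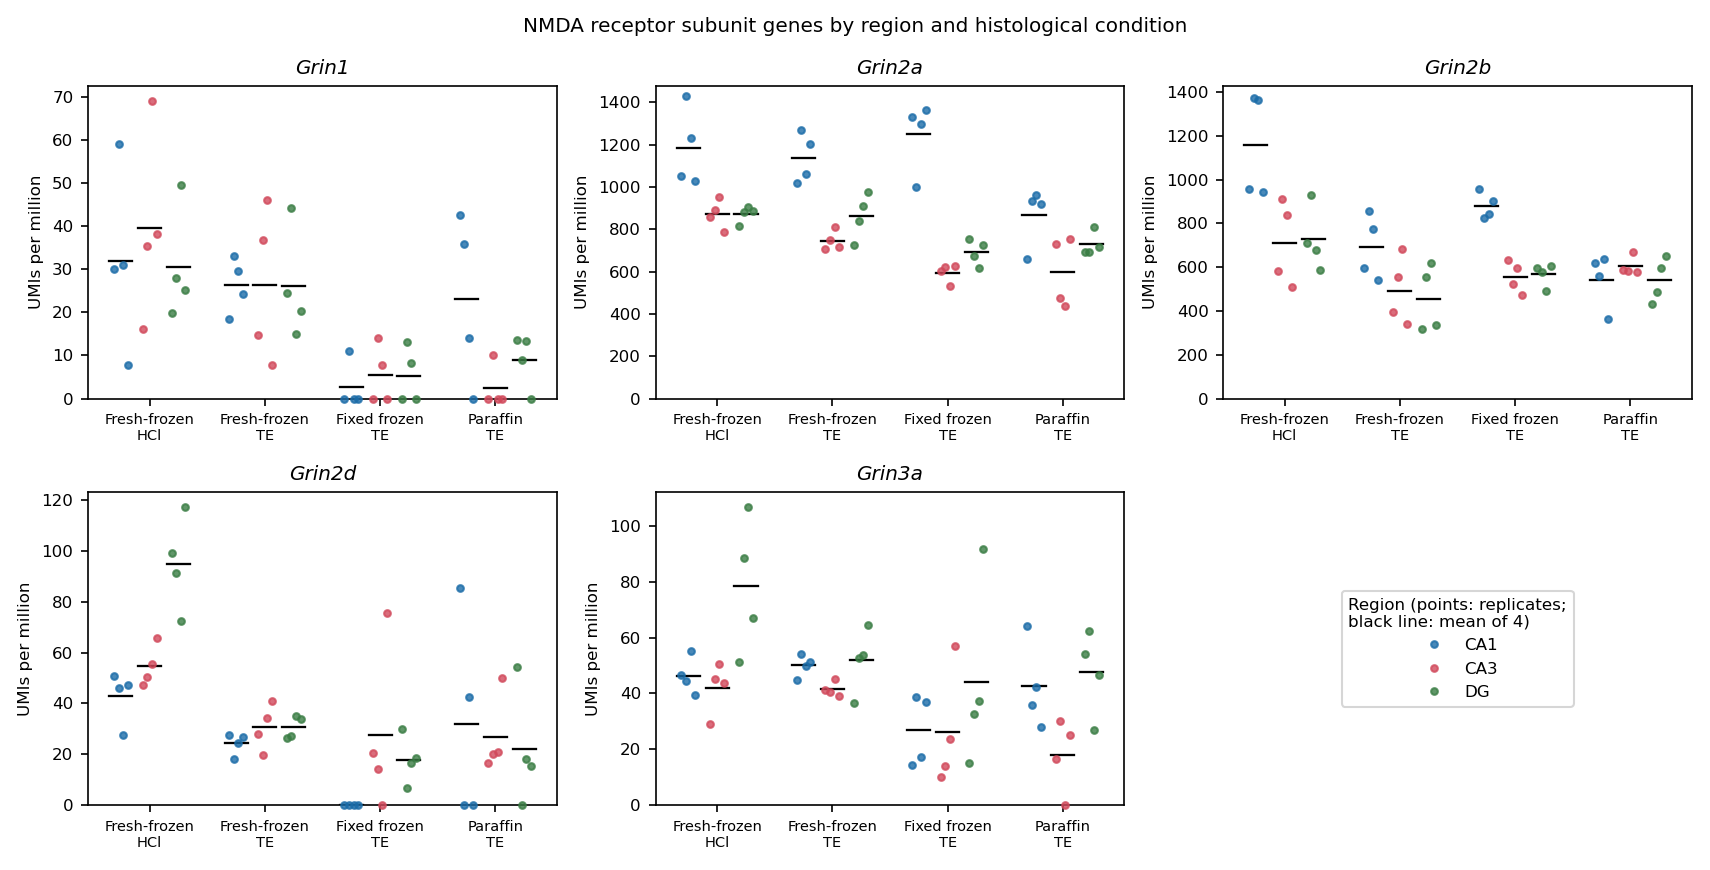
Levels (CPM, linear axes) of Grin1, Grin2a, Grin2b, Grin2d and Grin3a in each replicate of CA1, CA3 and DG in the 4 conditions, with a black line at the mean of 4 replicates. Grin2a in formalin-fixed frozen sections lay between 1001 and 1365 CPM in CA1 and between 532 and 753 CPM in CA3 and DG, while Grin2d was highest in DG of HCl sections, at 72.3 to 117 CPM.

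Markers of oligodendrocytes also differed between CA1 and DG in the frozen conditions. All 6 of the list were detected in each library, and they summed to 9106 to 18467 CPM in CA1 against 3293 to 5325 CPM in DG in HCl sections, 5836 to 10113 against 2522 to 3369 CPM in TE sections and 7199 to 15762 against 1789 to 2829 CPM in formalin-fixed frozen sections. The 8 interneuron markers, all detected, averaged 1310, 1228 and 1218 CPM in CA1 and 1064, 920 and 1122 CPM in DG of the same conditions. In paraffin sections the oligodendrocyte markers overlapped between CA1 (12996 to 21472 CPM) and DG (5555 to 16501 CPM). The interneuron markers averaged 932 CPM in CA1 and 1050 CPM in DG of these sections. The part of both lists in the differences of the subunits was not tested.

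CA3 pyramidal cells, which receive the mossy fibres of the granule cells, were compared with the same DG replicates. Gria2, Grin2d and Grin3a were lower in CA3 than in DG in HCl sections and Gria1 was lower in CA3 in formalin-fixed frozen sections, and no member was higher in CA3. These were 3 of 9 members in HCl sections (8.99% of all genes called), 0 of 9 in TE sections (7.92%), 1 of 8 in formalin-fixed frozen sections (9.26%) and 0 of 8 in paraffin sections (3.26%). In TE and paraffin sections 0 members passed at an unadjusted p under 0.05 and DESeq2 called 0. Of all genes tested, 2712 of 14386 and 1385 of 9380 passed at that p.

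Gria2 had 2361, 2058, 2472 and 2183 CPM in CA3 and 3369, 2891, 2799 and 3893 CPM in DG of HCl sections. The ranges did not overlap and CA3 was 1.4-fold lower (log2 fold change -0.48, SE 0.13, adjusted p = 0.014), a call that was lost without CA3 replicate 2 or 4 or DG replicate 4 and after correction for repeated tags (-0.36, adjusted p = 0.078). Grin3a had 28.9, 45.0, 50.6 and 43.8 CPM in CA3 against the DG values given above, without overlap, and was 1.92-fold lower (log2 fold change -0.94, SE 0.24, adjusted p = 0.011), which was lost without CA3 replicate 1 or DG replicate 3. Grin2d, at 47.2, 50.3, 55.6 and 65.6 CPM in CA3, also lay below every DG replicate (log2 fold change -0.73, SE 0.21, adjusted p = 0.026). This last call held only without CA3 replicate 4 or DG replicate 3. When all replicates were thinned to the smallest total by a random draw, the sign turned (0.17) but no difference was called (adjusted p = 0.95).

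Gria1 encodes GluA1, the AMPA receptor subunit inserted during potentiation. In formalin-fixed frozen sections it had 581, 656, 532 and 758 CPM in CA3 and 865, 895, 895 and 954 CPM in DG, with no overlap. It was 1.45-fold lower in CA3 (log2 fold change -0.54, SE 0.17, adjusted p = 0.020), and this was lost without CA3 replicate 3 or DG replicate 3. Replicate numbers met the pairing rule given with the processing for the HCl libraries of CA3 and DG. With the number as a block Gria3 was also called lower in CA3 in HCl sections (log2 fold change -0.28, adjusted p = 0.036 with the block and 0.20 without it). Its 668, 625, 689 and 673 CPM in CA3 lay below the 914, 726, 826 and 821 CPM of DG.

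Between the pyramidal fields, each member called was higher in CA1 than in CA3. Grin2b was called in HCl sections (1 of 9 members, 9.05% of all genes), Grin2a in TE sections (1 of 9, 4.42%), and Gria1, Gria2, Grin2a and Grin2b in formalin-fixed frozen sections (4 of the 7 tested, 7.23%). In paraffin sections 0 of 8 were called (2.28% of all genes), 1 passed at an unadjusted p under 0.05 (899 of the 7495 genes tested did) and DESeq2 called 0. In this contrast formalin-fixed frozen sections had the most members called, and 4 of the 5 abundant subunits were among them.

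In formalin-fixed frozen sections Grin2a was 2.03-fold higher in CA1, with the CA1 values above and 601, 621, 532 and 625 CPM in CA3 (log2 fold change 1.02, SE 0.18, adjusted p = 1.36e-06). Gria2 had 2767, 2267, 2609 and 3505 CPM in CA1 and 1670, 1419, 1761 and 1686 CPM in CA3 (log2 fold change 0.72, SE 0.16, adjusted p = 0.00031). Neither pair of ranges overlapped and both calls held without any 1 replicate. Gria1, at 942, 1050, 921 and 959 CPM in CA1 against the CA3 values given above, was 1.52-fold higher in CA1 (log2 fold change 0.61, SE 0.18, adjusted p = 0.015) and lost its call without CA1 replicate 2 or CA3 replicate 3. Grin2b had 631, 522, 595 and 473 CPM in CA3 and was also higher in CA1 (log2 fold change 0.60, SE 0.18, adjusted p = 0.021), which was lost without CA1 replicate 1 or CA3 replicate 2 or 4. Summed oligodendrocyte markers were 7199 to 15762 CPM in CA1 and 2727 to 5675 CPM in CA3 of these sections, and the part of this difference in the results was not tested.

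In fresh-frozen sections the 2 abundant GluN2 genes each passed in 1 condition. Grin2a in TE sections had 707, 749, 812 and 715 CPM in CA3, below every CA1 replicate (log2 fold change 0.60, SE 0.14, adjusted p = 0.0092, held without any 1 replicate), and in HCl sections 858, 893, 951 and 789 CPM in CA3, also below every CA1 replicate but not called (0.41, SE 0.15, adjusted p = 0.070). Grin2b in HCl sections had 583, 912, 838 and 511 CPM in CA3, below the CA1 replicates without overlap (log2 fold change 0.68, SE 0.17, adjusted p = 0.0093), which was lost without CA1 replicate 2 or 3 or CA3 replicate 1 or 4. In TE sections the CA1 and CA3 libraries also met the pairing rule, and Grin2b had 394, 553, 685 and 342 CPM in CA3. Grin2b was called there with the number as a block (log2 fold change 0.50, adjusted p = 0.0021) but not without the block (adjusted p = 0.17).

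**Figure D3:**
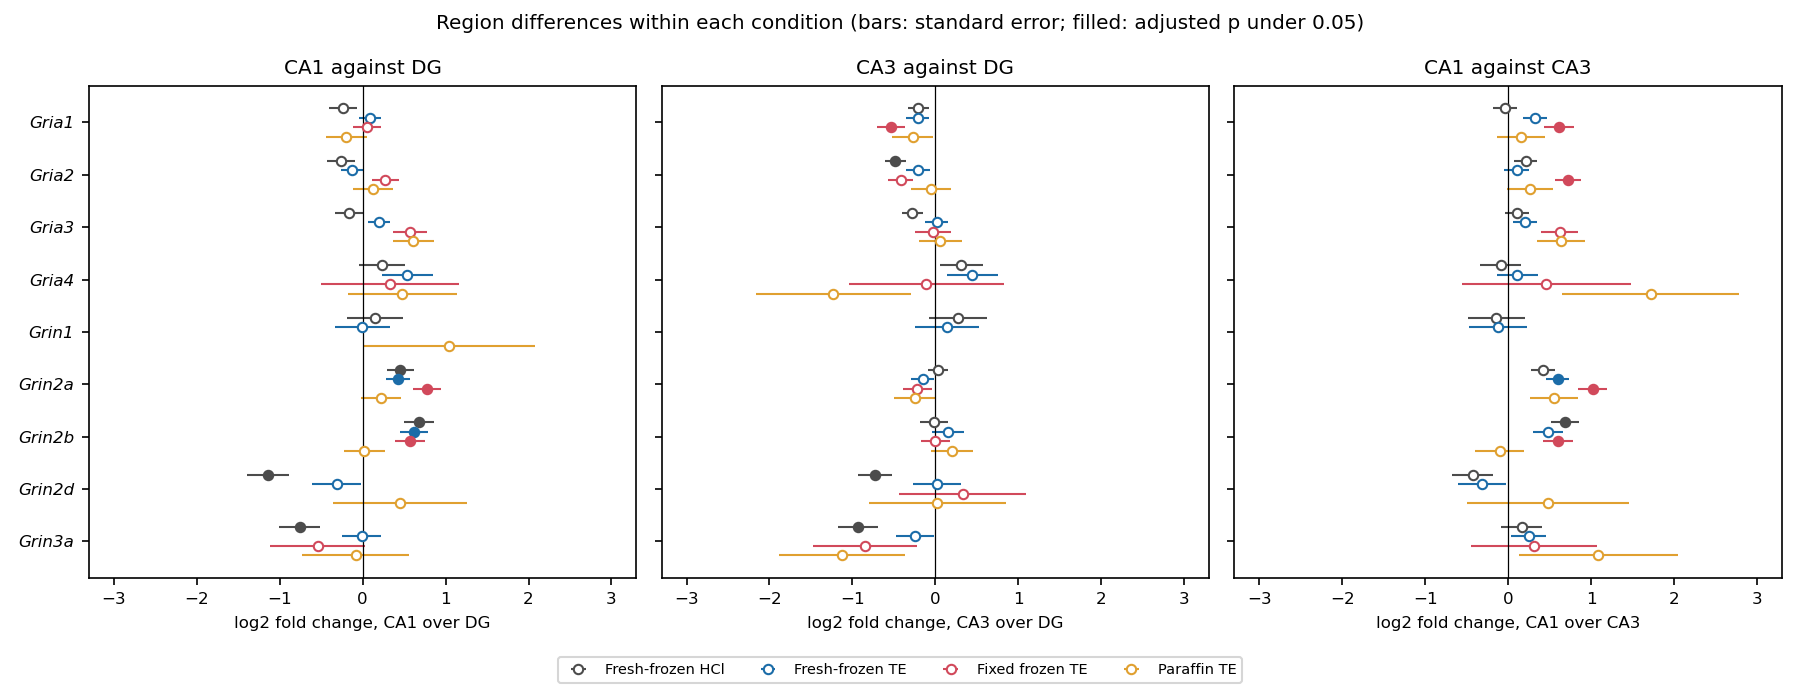
Log2 fold changes (first region over second) with their standard errors for the 9 members in CA1 against DG, CA3 against DG and CA1 against CA3, where colours are the 4 conditions and filled symbols an adjusted p under 0.05 in edgeR. The filled symbols are 8 of the 9 calls of CA1 against DG, 4 of CA3 against DG and 6 of CA1 against CA3, none of them in paraffin sections, and Grin2d in formalin-fixed frozen CA1 against DG is left out because CA1 was at 0.

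Whether a region effect differed between conditions was tested with an interaction term against TE sections. In these tests 0 of 81 were called by edgeR's quasi-likelihood test, where 0.533% of the tests of all genes were called, and the smallest adjusted p was 0.29. At an unadjusted p under 0.05 there were 12, and there were 0 called and 12 at that p with DESeq2 size factors, 0 and 14 with the replicate block, and 0 and 4 of 78 after thinning. Of all genes, between 890 of 16729 and 2067 of 16533 tested per contrast passed at that p without adjustment. Calls present in one condition and absent in another were therefore not shown to differ between conditions.

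The effect of the histological condition on each subunit was compared over the 3 regions together, with region as a covariate (12 replicates against 12). Each region contributed 1 library per condition, so that the condition and the libraries cannot be told apart. Between the permeabilization methods of fresh-frozen sections, Gria3 was lower and Grin2b and Grin2d were higher with HCl than with TE, and the other 6 members were not called, beside 30.6% of all genes called. Gria3 encodes GluA3, which pairs with GluA2 in the constitutively cycling AMPA receptors.

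Gria3 levels did not overlap between HCl (550 to 914 CPM) and TE sections (980 to 1402 CPM). Gria3 was 1.71-fold lower with HCl (log2 fold change -0.77, SE 0.088, adjusted p = 7.34e-10), and this held without any 1 of the 24 replicates and under each alternative setting. Grin2b ranged from 511 to 1375 CPM with HCl and from 317 to 857 CPM with TE (log2 fold change 0.51, SE 0.12, adjusted p = 0.00057), and Grin2d from 27.6 to 117 CPM and from 18.1 to 41.0 CPM (0.94, SE 0.16, adjusted p = 2.86e-06). The median log2 fold change of all genes was 0.10, or 0.24 with total UMIs in place of TMM normalization, where 4139 genes were higher and 1836 lower in HCl sections instead of 2954 and 2598, and the 3 calls held under both. The Grin2d call was lost after thinning to the smallest total.

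After fixation (formalin-fixed frozen against TE-permeabilized fresh-frozen sections) 8 of the 9 members were lower and Grin2b was not called. Of all genes, 48.7% were called, 32.9% lower, and the median log2 fold change of all genes was -0.39, so that the members are given relative to it as well. That median was -0.19 with DESeq2 and -0.07 after thinning to the smallest total, where 1223 genes were higher and 1399 lower instead of 2503 and 5230. Fixed replicates held a median of 122520 UMIs and unfixed TE replicates 629964, and after thinning Gria1, Gria3 and Grin1 were still called lower, whereas Gria2 (adjusted p = 0.15), Gria4 (0.052), Grin2a (0.78), Grin2d (0.12) and Grin3a (0.64) were not. Gria3 stood farthest from it among the abundant subunits. Its range was 183 to 453 CPM against 980 to 1402 CPM in TE sections, a 3.79-fold lower level (log2 fold change -1.92, SE 0.11, adjusted p = 1.94e-28), which is -1.53 relative to the median gene. All 12 fixed replicates lay below all 12 unfixed ones.

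The other AMPA receptor subunits differed less in this comparison. Gria1 was 1.46-fold lower (log2 fold change -0.55, SE 0.097, adjusted p = 1.14e-06), which is -0.16 relative to the median gene. Gria2 had -0.38 (SE 0.095, adjusted p = 0.00057), level with the median gene (0.01). After correction for repeated tags it had -0.73 beside a median of -0.44, or -0.29 relative to it, and with DESeq2 and after thinning it was -0.17 relative to the median gene of each. Gria4, at 0 to 29.0 CPM against 14.2 to 45.2 CPM, had -1.27 (SE 0.34, adjusted p = 0.00038). The log2 fold changes of the family thus ran from -1.92 for Gria3 to -0.38 for Gria2.

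Among the NMDA receptor subunits the rare ones had the largest log2 fold changes. Grin1 went from 7.82 to 46.1 CPM in TE sections to 0 to 14.1 CPM in formalin-fixed frozen sections (log2 fold change -2.02, SE 0.52, adjusted p = 2.96e-05), Grin2d had -1.26 (SE 0.39, adjusted p = 0.0018) and Grin3a -0.67 (SE 0.24, adjusted p = 0.014). Grin2a had -0.25 (SE 0.098, adjusted p = 0.031), which is 0.14 above the median gene (-0.05 relative to it with DESeq2), and lost its call without DG replicate 4 of the TE sections and with total UMIs as scaling (adjusted p = 0.13). Grin2b had 0.21 (SE 0.11, adjusted p = 0.12), 0.59 above the median gene, and was called higher with total UMIs (0.27, adjusted p = 0.037) and after thinning (0.44, adjusted p = 0.021). Markers of astrocytes (6 in the list, Aldh1l1 at 0 in CA3 of fixed sections) summed to 3802 to 7349 CPM in TE sections and to 1273 to 2103 CPM in formalin-fixed frozen sections, and their part in these results was not tested.

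Embedding in paraffin was compared with frozen sections of fixed tissue. Gria3 was higher in paraffin sections, at 351 to 890 CPM against 183 to 453 CPM, 1.53-fold on average in the fit (log2 fold change 0.62, SE 0.15, adjusted p = 0.00038), and this held without any 1 of the 24 replicates and under each alternative setting. Gria1 (-0.39, SE 0.14, adjusted p = 0.021) and Gria2 (-0.33, SE 0.13, adjusted p = 0.048) were lower, and the other 6 members were not called, beside 28.2% of all genes called. The Gria1 call was lost on leaving out any 1 of 10 of the 24 replicates and the Gria2 call on leaving out any 1 of 22 (all but replicate 4 of CA1 and of CA3 in paraffin sections), and both were lost with DESeq2, DESeq2 size factors and total UMIs. The scaling moved all genes here, with 1595 genes higher and 1842 lower in paraffin sections as reported and 2353 higher and 1231 lower with DESeq2 size factors. Summed oligodendrocyte markers averaged 16199, 12898 and 10581 CPM in CA1, CA3 and DG of paraffin sections, against 9876, 4533 and 2245 CPM in fixed frozen sections. The CA1, CA3 and DG markers in their own regions averaged 475, 390 and 1087 CPM against 1126, 763 and 2397 CPM. The part of these markers in the results was not tested.

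**Figure D4:**
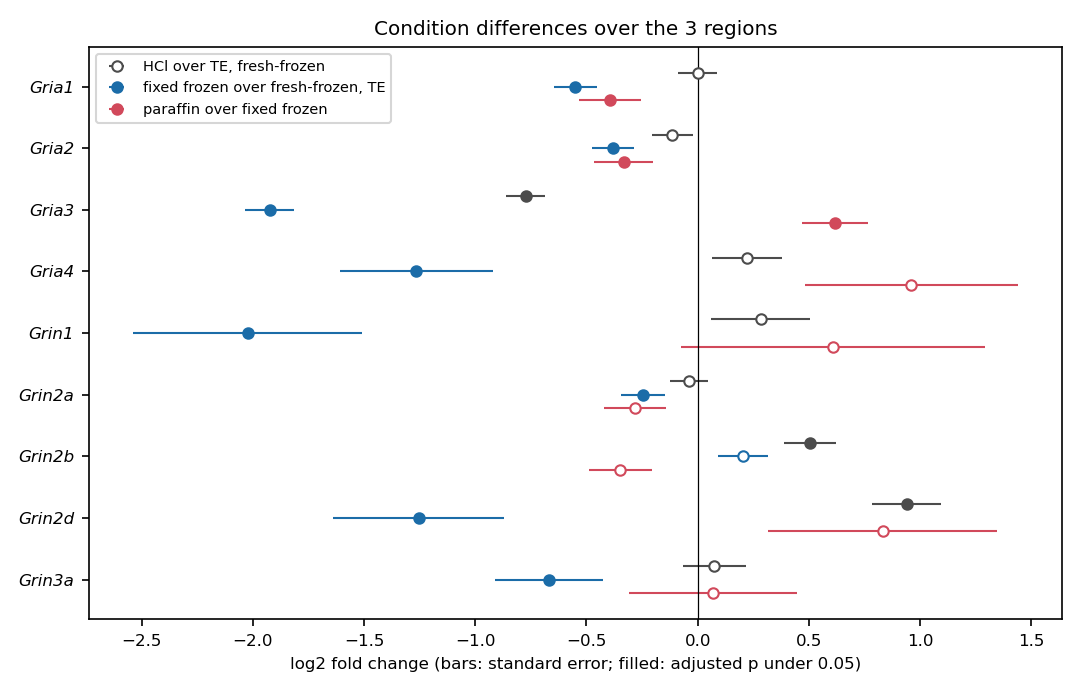
Log2 fold changes with their standard errors for the 9 members in HCl against TE fresh-frozen sections, formalin-fixed frozen against TE fresh-frozen sections and paraffin against formalin-fixed frozen sections, 12 replicates each, with filled symbols for an adjusted p under 0.05. Gria3 is filled in each comparison, at -0.77, -1.92 and 0.62.

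Subunit shares compare members within a replicate and do not depend on its scaling, although the compression of high counts in deep replicates enters them. They were tested by two-sided permutation within conditions or regions (100000 permutations, adjusted over 36 tests) that did not use the replicate numbers, and a share is the UMIs of a subunit in percent of the UMIs of its family. Between regions 4 of 18 tests passed. The AMPA receptor genes took a smaller share of the UMIs of all 9 members in CA1 than in DG, 68.5% against 73.8% on average, a difference of -5.36 percentage points (n = 16 each, permutation p = 5e-05, adjusted p = 0.00030). It was lower in CA1 in all 4 conditions, though by little in paraffin sections. The means in CA1, CA3 and DG were 65.4%, 70.9% and 75.2% in HCl sections, 72.8%, 77.1% and 78.6% in TE sections, 65.9%, 67.8% and 71.7% in formalin-fixed frozen sections, whereas in paraffin sections they were 69.8%, 69.2% and 69.8%. CA3 lay below DG as well (-2.61 points, adjusted permutation p = 0.031, n = 16), which was lost without DG replicate 4 of HCl sections, CA3 replicate 2 or 3 or DG replicate 4 of TE sections, or CA3 replicate 2 of paraffin sections, while CA1 against CA3 was not called (-2.75 points, adjusted permutation p = 0.052, n = 16). The numbers met the pairing rule for each pair of regions in TE sections and for CA3 and DG in HCl sections, and for no other pair of regions. An exact permutation of the signs of same-numbered pairs was chosen after the data were seen. It used the pairs of all 4 conditions, including libraries that did not meet the rule. The 4 region tests passed again in this permutation. CA1 against CA3 for the AMPA share also passed in it (adjusted p = 0.014, lower in CA1 in 13 of 16 pairs). So did CA3 against DG for the Grin2a share of both GluN2 genes (adjusted p = 0.045).

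Gria3 took a larger share of the AMPA receptor UMIs in both pyramidal fields. Over the 4 conditions its share was 17.4% in CA1, 16.7% in CA3 and 14.7% in DG, with differences from DG of 2.78 points for CA1 (adjusted permutation p = 0.0086, n = 16) and 2.09 points for CA3 (adjusted permutation p = 0.034, n = 16). The CA1 difference held without any 1 replicate but not without paraffin sections (1.88 points, adjusted permutation p = 0.067), and the CA3 difference was lost without any 1 of 11 of the 32 replicates. The comparisons with DG use the same DG replicates. The shares of Gria1 and Gria2 were not called between regions. Although both Grin2a and Grin2b were higher in CA1 than in DG, the share of Grin2a in their sum was 58.3% in each (difference -0.04 points, adjusted permutation p = 0.98, n = 16), and in CA3 it was 54.4%. The pooled value covers CA1 and DG shares of 50.7% and 54.8% in HCl, 62.4% and 65.9% in TE, 58.4% and 55.0% in formalin-fixed frozen and 61.6% and 57.5% in paraffin sections, higher in CA1 in 2 of the 4 conditions.

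Between conditions 12 of 18 share tests passed. The Gria3 share averaged 15.5% in HCl, 23.0% in TE, 9.55% in formalin-fixed frozen and 17.0% in paraffin sections. The differences were -7.55 points for HCl against TE (adjusted permutation p = 0.00022), -13.5 points for fixed against fresh-frozen (adjusted permutation p = 0.00018) and 7.50 points for paraffin against fixed frozen (adjusted permutation p = 0.00018, with a raw p of 1e-05 that is the smallest these permutations can give), n = 12 each. The order of the conditions was the same in CA1, CA3 and DG between TE (24.1%, 23.9% and 21.1%), HCl (15.5%, 15.9% and 15.0%) and formalin-fixed frozen sections (10%, 10.7% and 7.97%), whereas paraffin sections had 20.1%, 16.5% and 14.6%. After correction for repeated tags the means over regions were 13.6% in HCl, 21.2% in TE, 9.33% in formalin-fixed frozen and 16.9% in paraffin sections.

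The share of Gria2 was 56.9%, 53.2%, 65.0% and 59.8% in HCl, TE, formalin-fixed frozen and paraffin sections. After correction for repeated tags it was 61.0%, 56.9%, 65.6% and 60.2% in the same order. The uncorrected share was 11.8 points higher in fixed than in fresh-frozen TE sections (adjusted permutation p = 0.00018, n = 12). HCl minus TE sections came to 3.77 points and paraffin minus fixed frozen sections to -5.16 points (adjusted permutation p = 0.040 each, n = 12), and these were lost without any 1 of 12 and of 14 of the 24 replicates. Gria1 took 3.54 points more in HCl than in TE sections (26.7% against 23.1%, adjusted permutation p = 0.0086, n = 12), and Gria4 0.25 points more (0.906% against 0.660%, adjusted permutation p = 0.031). After thinning the Gria4 difference had the other sign and was not called (-0.0623 points, adjusted permutation p = 0.95).

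The balance of the GluN2 genes also moved with the condition. The Grin2a share was 63.1% in TE sections against 53.8% in HCl sections (-9.33 points, adjusted permutation p = 0.0018, n = 12) and 55.1% in formalin-fixed frozen sections (-8.00 points, adjusted permutation p = 0.0018, n = 12), and 56.0% in paraffin sections, which did not pass against fixed frozen sections. The AMPA share of all members was likewise highest in TE sections, at 76.2% against 70.5% in HCl (-5.63 points, adjusted permutation p = 0.0011, n = 12) and 68.5% in formalin-fixed frozen sections (-7.69 points, adjusted permutation p = 0.00018, n = 12). After correction for repeated tags this share was 78.2% in TE, 72.8% in HCl and 68.8% in formalin-fixed frozen sections. TE-permeabilized fresh-frozen sections therefore had the highest shares of Gria3, Grin2a and AMPA receptor genes and the lowest share of Gria2.

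**Figure D5:**
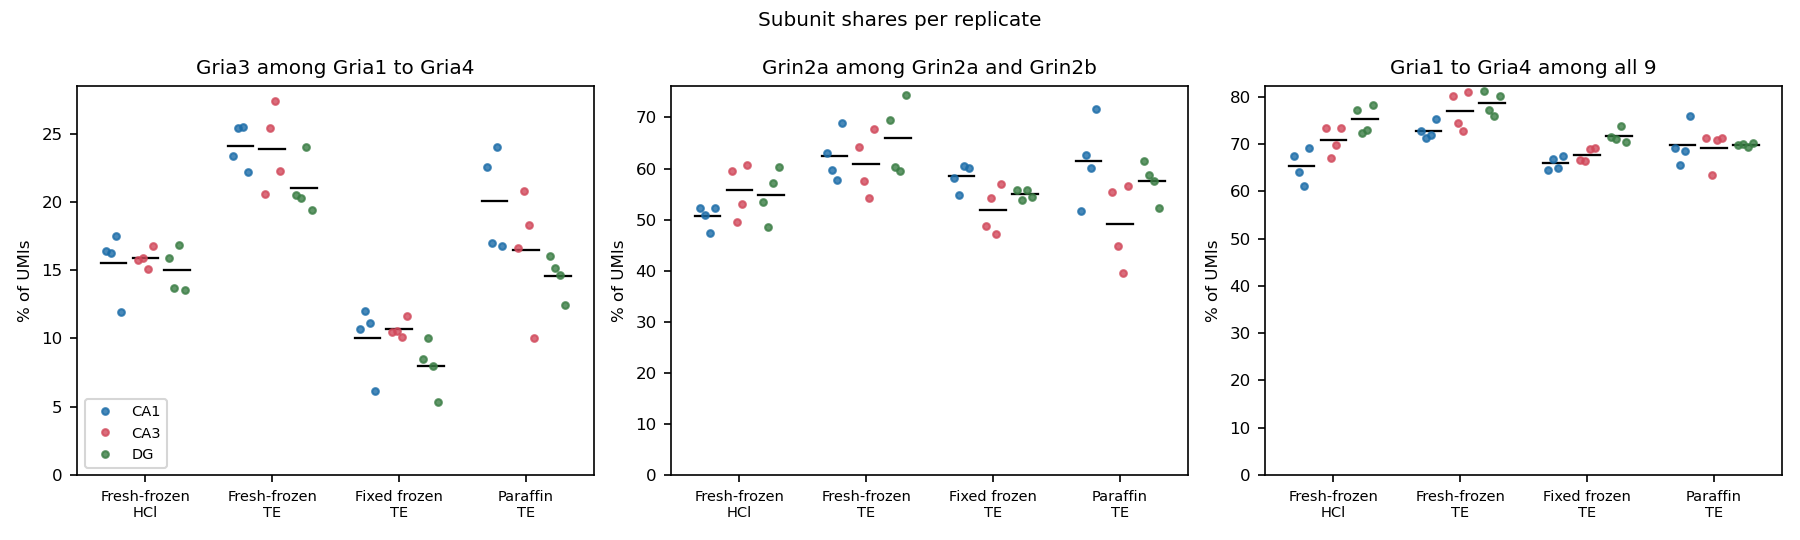
Share of Gria3 in the UMIs of the 4 AMPA receptor genes, of Grin2a in those of Grin2a and Grin2b, and of the AMPA receptor genes in those of all 9 members (percent), for each replicate in CA1, CA3 and DG of the 4 conditions with a black line at the mean of 4. The Gria3 share was 19.4% to 27.4% in TE sections and 5.33% to 12% in formalin-fixed frozen sections.

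Other receptor genes outside the 9 members were rare. Grin2c averaged 9.21 to 34.8 CPM over the 12 libraries, Grin3b had 1 UMI in all 48 replicates, and Grid1, a delta receptor gene, averaged 28.2 to 94.4 CPM. Grin3b was below the minimum of 10 UMIs and was not tested. Grin2c and Grid1 were not called between regions in any condition by edgeR's quasi-likelihood test, beside 2.28% to 16.9% of all genes.

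Genes whose products work with the receptors were counted from 3 lists. Auxiliary subunits of AMPA receptors set their trafficking and gating. Between CA1 and DG, 2 of the 16 tested were higher and 3 lower in HCl sections, 3 and 3 of 16 in TE sections, 1 and 5 of 15 in formalin-fixed frozen sections, and, of 13 in paraffin sections, 0 and 1. Their median log2 fold changes were -0.34, 0.09, -0.24 and -0.50, beside 0.04, 0.01, -0.11 and -0.17 for all genes. In these 4 contrasts 16.9%, 10.2%, 8.09% and 3.14% of all genes were called. Cnih3, a cornichon that slows channel closing, was lower in CA1 than in DG in the 3 frozen conditions (log2 fold changes -2.72, -1.67 and -2.59), as were Shisa9, also known as CKAMP44 (-1.02, -1.09 and -2.59), and Olfm1, a secreted protein that binds AMPA receptors (-0.86, -0.66 and -0.63). Gsg1l, which slows recovery from desensitization, was lower in CA3 than in DG in HCl and TE sections (-1.38 and -1.43). CA3 against DG gave 0 higher and 3 lower of 16 tested, 1 and 3 of 16, 1 and 2 of 15, and 0 and 0 of 13 in HCl, TE, formalin-fixed frozen and paraffin sections. Of all genes, 8.99%, 7.92%, 9.26% and 3.26% were called there. CA1 against CA3 gave 1 and 3 of 16, 0 and 1 of 16, 0 and 1 of 10, and 0 and 0 of 10, beside 9.05%, 4.42%, 7.23% and 2.28% of all genes.

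Of 11 partners of NMDA receptors, 2 were higher and 1 lower in CA1 than in DG in HCl sections, 2 and 1 in TE sections, 0 and 2 of 10 tested in formalin-fixed frozen sections, and, in paraffin sections, 1 and 1. Their medians were -0.05, 0.10, -0.33 and -0.10, beside the all-gene medians given above, and 16.9%, 10.2%, 8.09% and 3.14% of all genes were called in these 4 contrasts. Dlg1, the scaffold SAP97, was higher in CA1 in HCl, TE and paraffin sections (log2 fold changes 1.13, 0.88 and 1.30) and had -0.41 (adjusted p = 0.69) in formalin-fixed frozen sections. Dlg2, the scaffold PSD-93, was higher in CA1 in HCl sections (1.16) and had -0.31 and -0.54 in TE and formalin-fixed frozen sections (adjusted p = 0.37 each) and 0.06 in paraffin sections. Neto1 was lower in CA1 than in CA3 in HCl and TE sections (-1.93 and -1.25) and in formalin-fixed frozen sections, where CA1 held 1 UMI and CA3 53 over 4 replicates (adjusted p = 3.16e-10). Neto2 was higher in CA3 than in DG in the 3 frozen conditions (0.72, 1.11 and 1.34), both genes being known best as auxiliary subunits of kainate receptors. CA3 against DG gave 4 higher and 1 lower, 2 and 1, 2 and 1, and 0 and 0, of 11 tested in each condition. CA1 against CA3 gave 0 and 3 of 11, 0 and 1 of 11, 0 and 1 of 10, and 0 and 0 of 11. The shares of all genes called in these contrasts are those given with the auxiliary subunits.

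Of 25 genes of the postsynaptic scaffold and of receptor trafficking, 6 of 25 tested were higher and 2 lower in CA1 than in DG in HCl sections, 6 and 2 of 24 in TE sections, 2 and 2 of 20 in formalin-fixed frozen sections, and, of 20 in paraffin sections, 1 and 1. Their medians were 0.30, 0.18, 0.08 and -0.06, beside 0.04, 0.01, -0.11 and -0.17 and the same shares of all genes called. Kif5a, a kinesin heavy chain, was higher in CA1 (0.89, 1.15 and 0.87 in the 3 frozen conditions), and Lin7c, an adaptor of NMDA receptor cargo, lower (-1.04, -0.98 and -1.18). Nsf, an ATPase that binds the GluA2 tail, was lower in CA1 in TE, formalin-fixed frozen and paraffin sections (-0.45, -0.59 and -0.82). Homer2, a scaffold that links receptors to calcium stores, was higher in CA1 than in CA3 in the 3 frozen conditions (1.19, 1.03 and 1.16). CA3 against DG gave 2 higher and 1 lower of 25 tested, 4 and 1 of 24, 3 and 1 of 21, and 0 and 0 of 21. CA1 against CA3 gave 1 and 2 of 25, 1 and 0 of 24, 2 and 1 of 21, and 1 and 0 of 19. The shares of all genes called in these contrasts are again those given with the auxiliary subunits.

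Between conditions the lists split in both directions, as did all genes, of which 30.6% were called in HCl against TE sections, 48.7% after fixation and 28.2% in paraffin against fixed frozen sections. Of the AMPA receptor auxiliary subunits 5 were higher and 4 lower in HCl than in TE sections, 3 and 3 in fixed than in fresh-frozen sections, and 4 and 5 of 15 in paraffin than in fixed frozen sections. Of the NMDA receptor partners these counts were 2 and 3, 1 and 4, and 3 and 3, and of the scaffold and trafficking genes 10 and 6, 3 and 10, and 2 and 6 of 22. The median log2 fold change after fixation was 0.13 for the auxiliary subunits, 0.01 for the partners and -0.37 for the scaffold and trafficking genes, beside -0.39 for all genes (-0.19 with DESeq2). In paraffin against fixed frozen sections the medians were -0.77, -0.27 and -0.15, beside 0.02 for all genes.

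The genes whose mean levels most resembled those of a member were sought over the 12 libraries among 7423 genes, which share these libraries, their depth and their conditions. Levels were centred within each condition first, so that only the pattern over CA1, CA3 and DG was compared and differences between conditions did not enter. Gria3 was most like Mrpl34 (Pearson r = 0.94), Abl1 (0.94) and Tmem242 (0.92), and Grin2a most like Pantr1, Ccn3 (0.98 each) and Hs6st2 (0.97). Grin2b was nearest to Rab8b (0.97), Gria1 to 4933427D14Rik (0.96), Gria2 to Zfp467 (0.94), Gria4 to Vldlr (0.96), Grin1 to Rpap3 (0.98), Grin2d to Vps33b (0.96) and Grin3a to Dhx30 (0.97). With 12 points centred within conditions and this many genes, such values are a description of the libraries.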

How the data were processed

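PIC libraries were made by the authors with a CEL-seq2 protocol. Per the labels and the study's methods, they used UMI-tools 1.0.0 for the 6-base barcodes and UMIs, Trim Galore for trimming, HISAT2 2.1.0 for alignment to GRCm38 and featureCounts 1.6.4 for assignment to genes, and deposited UMI counts without normalization. The annotation release is not given in the sources used here. All 48 columns of the count table were used, and a table of barcode sequences was not. Gene positions came from GENCODE M21.

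Counts were fitted with edgeR 4.0.16 (R 4.3.3) by its quasi-likelihood test with TMM normalization, a minimum of 10 UMIs per gene over all replicates of a fit, Benjamini-Hochberg adjustment over all of them and a threshold of 0.05. Regions were fitted on the 8 replicates of both regions within a condition, conditions on 24 replicates with region as a covariate. DESeq2 1.42.0, its size factors, total UMIs, other filters, a replicate block, thinning to 35932 UMIs, correction for 6-base tags drawn more than once and leaving out each replicate were alternatives. Thinning was a random draw that was not repeated, so that rare genes after thinning also carry the scatter of that draw. Shares were tested in Python 3.11.15 (numpy 2.4.6, pandas 2.3.3, scipy 1.17.1). Figures used matplotlib 3.10.9. Scripts were tested on simulated data.

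The study gives the 4 replicates as biological, but which mouse gave which replicate is not given in the sources used here. Numbers were taken to pair 2 libraries where all 4 same-numbered pairs of deviations correlated above 0.1 (the pairing rule). This held for 4 of 12 pairs of regions and 2 of 9 pairs of conditions. Replicate 4 had the fewest UMIs in each of the 12 libraries, so that a shared mouse and a shared rank in depth cannot be told apart. The 2 pairs of conditions lie in comparisons that pool all regions, whose fits were left without the block. The named genes were the 9 members, other receptor genes (1 of them is not reported here), up to 4 genes per list called in the most conditions and then by size, and the genes most like each member. The members and lists were chosen with earlier results of these data known.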

Additional observations from a re-analysis of the deposited data

Results flagged for a closer look

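In 9 of 179 groups of 4 replicates (5.03%), 1 replicate lay far from the other 3 by Dixon's gap test, which flags about 1 group in 20 by chance. Replicate 4 of CA1 in paraffin sections had 2867 CPM of Gria2 (others 1728 to 1921), and replicate 4 of CA1 in formalin-fixed frozen sections 295 CPM of Gria3 (others 443 to 453). Gria4 in replicate 4 of DG in HCl sections was at 25.1 CPM (others 38.8 to 40.6). Grin1 was at 11.1 CPM in replicate 2 of CA1 in formalin-fixed frozen sections and at 10.1 CPM in replicate 2 of CA3 in paraffin sections, where the others were at 0. In paraffin sections, Grin2a in CA1 replicate 1 was at 662 CPM (others 918 to 961), Grin2b in CA3 replicate 3 at 669 CPM (others 576 to 587), Grin2d in CA3 replicate 4 at 50.1 CPM (others 16.5 to 20.9) and the AMPA share in CA3 replicate 2 at 63.4% (others 70.8% to 71.3%). Of the 9 flagged groups, 6 were in paraffin sections, the shallowest condition.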

How the results depend on the processing

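Depth was the choice that moved most. Between regions the counts are calls of a member in a condition, summed over the 4 conditions, so that a member can count more than once. Thinned to 35932 UMIs, there were 2 such calls for CA1 against DG (9 before thinning), 1 for CA3 against DG (4) and 3 for CA1 against CA3 (6). Members called after fixation were 4 (8, of which Gria1, Gria3 and Grin1 stayed called while Grin2b was newly called, as higher). For paraffin against fixed frozen sections 1 member was called (3), and 1 region share (4) and 5 condition shares (12) passed. Thinning with the replicate block left 2 calls for CA1 against DG. Signs turned in thinned data for Grin2d in CA3 against DG of HCl sections (0.17 on the log2 scale, also with the block) and for the Gria4 share of HCl against TE (-0.0623 points). Neither was called there, with an adjusted p of 0.95 for Grin2d in edgeR and an adjusted permutation p of 0.95 for the share. Paraffin against fixed frozen sections gave 1 called member with no filter and 1 with total UMIs. The cause was not tested. Leaving out 1 replicate gave 7 to 10 calls for CA1 against DG, 2 to 5 for CA3 against DG (2 without HCl CA3 replicate 1 or 2 or DG replicate 4), 5 to 7 for CA1 against CA3, 3 to 3 for HCl against TE, 7 to 8 after fixation, 1 to 3 for paraffin (1 without fixed frozen CA1 replicate 2, CA3 replicate 4, DG replicate 3 or 4, or paraffin CA1 replicate 1 or 2 or DG replicate 2 or 4), 2 to 6 region shares (2 without HCl DG replicate 4, TE CA3 replicate 2 or TE DG replicate 4) and 11 to 14 condition shares. With the replicate block there were 11 calls for CA1 against DG, 6 for CA3 against DG and 9 for CA1 against CA3. Members called were 3 for HCl against TE, 8 after fixation and 4 for paraffin, and 6 region shares and 13 condition shares passed. These block counts used the numbers in all libraries, including pairs that did not meet the pairing rule. Among the 4 pairs of regions that met the pairing rule, the block changed no member's call other than those of Gria3 and Grin2b given with the regions. Counts from DESeq2, its size factors, filterByExpr, the third region in the fit and the correction for repeated tags stayed within 1.5 times those reported.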
